A study of Homo sapiens with 6 samples.

Results

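The BMP and TGF-beta response genes considered here are 10 genes chosen by name: the BMP target genes *ID1*, *ID2* and *ID3*, the inhibitory SMAD genes *SMAD6* and *SMAD7*, the ligand genes *BMP2*, *BMP4* and *TGFB1*, the pseudoreceptor gene *BAMBI* and the receptor gene *TGFBR2*. All 10 had a row among the 63677 genes of the count table. Of these, 8 had enough reads to be tested, among 12507 genes tested in all, and *SMAD6* and *BMP2* did not. RNA was sequenced from cells of LoVo, by its label an established human colorectal cancer cell line, grown in serum-containing RPMI-1640 and transfected by lipofection at 25 nM for 48 h. The 3 *SNHG15* siRNA libraries came from cells given a mixture of 2 siRNAs against the lncRNA *SNHG15*, and the 3 scramble libraries from cells given a control siRNA. The comparison asked which genes respond to depletion of *SNHG15*. No BMP or TGF-beta ligand or inhibitor is named in either condition, and no library received 1 of the siRNAs alone, so effects of the individual siRNAs cannot be told apart.

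BMP ligands bind type I receptors such as BMPR1A and ACVR1 together with the type II receptor BMPR2, and the activated complex phosphorylates SMAD1, SMAD5 and SMAD9. TGF-beta ligands bind TGFBR2 and TGFBR1 and act mainly through SMAD2 and SMAD3, and both branches share SMAD4. The *ID* genes are direct targets of the BMP branch. ID proteins carry a helix-loop-helix domain without a DNA-binding basic region, so that they pair with the E proteins TCF3, TCF4 and TCF12 and keep them off DNA. SMAD6, SMAD7 and BAMBI dampen signalling and are themselves induced by it. In the intestinal epithelium BMP signalling restrains stem cells, and TGF-beta signalling restrains growth.

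The libraries held between 3446922 and 10256710 counts, with scramble replicate 3 the least deep. Replicates of a condition differed by more than sampling noise (chi-square per degree of freedom of 4.34 to 20.4). A count of 3, taken as the floor, was worth 0.298 to 0.907 CPM (counts per 1e6 of the TMM-scaled library) in a library. *SNHG15* itself fell from 276 ± 14.3 CPM (SD, n = 3) to 82.5 ± 4.997 CPM (SD, n = 3), with a log2 fold change of -1.74 (SE 0.12, adjusted p = 2.62e-05). The cell type label was checked against 11 markers of colorectal epithelium. *KRT8* (41.6 to 68.3 CPM), *KRT18* (20.2 to 28.9 CPM), *CDX2* (25.4 to 29.0 CPM) and *CDH1* (3.05 to 8.55 CPM) were present, and *LGALS4* passed the floor in 1 library with 4 counts. *CDH17*, *KRT20*, *KRT19*, *VIL1* and *CDX1* had 0 counts in all 6 libraries, and *EPCAM* had 2 counts in all libraries together. *VIM*, looked at after these values were seen, stood at 40.6 to 69.6 CPM. LoVo is known as an epithelial line that expresses *EPCAM*, so these levels go against the label, in both conditions alike, and the cells are called here the libraries labelled LoVo. The summed level of the epithelial list was 102 to 110 CPM in scramble and 106 to 117 CPM in siRNA libraries. Markers of other cells were near 0, with sums of 0.352 to 0.605 CPM in scramble and 1.01 to 1.53 CPM in siRNA libraries for 7 fibroblast and smooth muscle genes, at most 0.234 CPM for 3 endothelial genes and at most 0.277 CPM for 5 leukocyte genes. The part of these in the results was not tested.

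The 3 *ID* genes, whose siRNA libraries all lay above the scramble libraries, are shown by the 250 bases before a transcription start of each, from RefSeq (GRCh38.p14) and placed on GRCh37 by exact match. Each is written 5′ to 3′ in the direction of transcription. Capitals mark, on either strand, CAGAC (the short SMAD-binding box), GGCGCC (a GC-rich SMAD element), CACGTG (an E-box), CCAAT (the CCAAT box) and TATAAA (the TATA box).
*ID1*, chr20:30192842-30193091, plus strand: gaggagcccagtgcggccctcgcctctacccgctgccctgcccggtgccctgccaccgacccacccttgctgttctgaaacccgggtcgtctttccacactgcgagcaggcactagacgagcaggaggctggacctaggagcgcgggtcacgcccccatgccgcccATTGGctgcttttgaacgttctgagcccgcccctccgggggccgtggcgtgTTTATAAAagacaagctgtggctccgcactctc
*ID2*, chr2:8821936-8822185, plus strand: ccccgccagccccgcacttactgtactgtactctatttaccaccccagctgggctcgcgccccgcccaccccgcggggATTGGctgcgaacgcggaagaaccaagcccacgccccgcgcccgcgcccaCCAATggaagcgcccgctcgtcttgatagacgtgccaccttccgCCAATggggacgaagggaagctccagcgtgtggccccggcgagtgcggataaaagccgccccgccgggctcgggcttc
*ID3*, chr1:23885993-23886242, minus strand: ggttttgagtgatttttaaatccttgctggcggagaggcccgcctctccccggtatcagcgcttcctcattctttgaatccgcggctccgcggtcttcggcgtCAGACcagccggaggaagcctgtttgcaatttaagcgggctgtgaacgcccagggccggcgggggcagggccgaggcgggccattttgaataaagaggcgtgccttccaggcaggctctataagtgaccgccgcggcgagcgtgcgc
The *ID1* window held a CCAAT box that began 84 bases before the start and overlapping TATAAA matches on both strands, the first beginning 33 bases before it. In the *ID2* window CCAAT occurred 3 times, and in the *ID3* window CAGAC occurred once, 147 bases before the start. Over 35116 promoters of the same length, CAGAC was found in 38.0%, GGCGCC in 16.4%, CACGTG in 6.34%, CCAAT in 32.0% and TATAAA in 10.7%. *BMP2* had no promoter entry. Among the other 9 members, counting any of their annotated starts, CAGAC was found in 4, GGCGCC in 2, CACGTG in 1, CCAAT in 4 and TATAAA in 2. *BMP4*, *SMAD7* and *TGFBR2* have more than 1 start, which can raise these counts per gene above the shares per promoter. None of the 5 motifs was shared by all 3 *ID* windows, and a match of letters is not a measured binding site. Sequence outside the 250 bases was not searched, so a motif missing here may lie elsewhere at the gene.

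The *ID* genes showed the clearest differences of the set. *ID1* (ENSG00000125968, chromosome 20 from 30193086 to 30194318, plus strand) stood at 12.8, 13.0 and 20.3 CPM in scramble replicates 1 to 3 and at 35.2, 36.7 and 27.7 CPM in the *SNHG15* siRNA replicates. Every siRNA library lay above every scramble library, with the highest scramble value in the shallowest library. The raw counts behind these levels were 109, 131 and 67 in scramble and 254, 255 and 236 in siRNA libraries. The mean rose from 15.4 ± 4.25 to 33.2 ± 4.81 CPM (SD, n = 3), 2.25-fold, with a log2 fold change of 1.17 (SE 0.19, 95% interval 0.75 to 1.59, adjusted p = 0.00598). By p it ranked 88 of the 12507 genes tested. In RNA from a whole culture, a change in how many cells express a gene and a change in its RNA per cell cannot be told apart.

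*ID3* (ENSG00000117318, chromosome 1 from 23884417 to 23885992, minus strand) was measured at 45.6, 42.4 and 44.5 CPM in the scramble libraries, with the smallest spread for its mean of any member in that condition. In the siRNA libraries it stood at 80.1, 81.0 and 62.8 CPM, again all above scramble and again lowest in siRNA replicate 3. Its mean rose from 44.1 ± 1.63 to 74.7 ± 10.2 CPM (SD, n = 3), 1.69-fold, with a log2 fold change of 0.76 (SE 0.14, 95% interval 0.46 to 1.06, adjusted p = 0.00914). *ID2* (ENSG00000115738, chromosome 2 from 8818975 to 8824591, plus strand) had 4.57, 3.48 and 4.84 CPM in scramble and 5.96, 5.90 and 5.99 CPM in siRNA libraries. These values did not overlap either, but the log2 fold change of 0.51 (SE 0.23, 95% interval 0.01 to 1.01) did not pass the test (adjusted p = 0.215). *ID2* shares 145 exon bases with the antisense gene *ID2-AS1*, which had at most 2 counts in any library. *ID4*, the remaining gene of the family, had 0 counts in all 6 libraries.

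**Figure D1:**
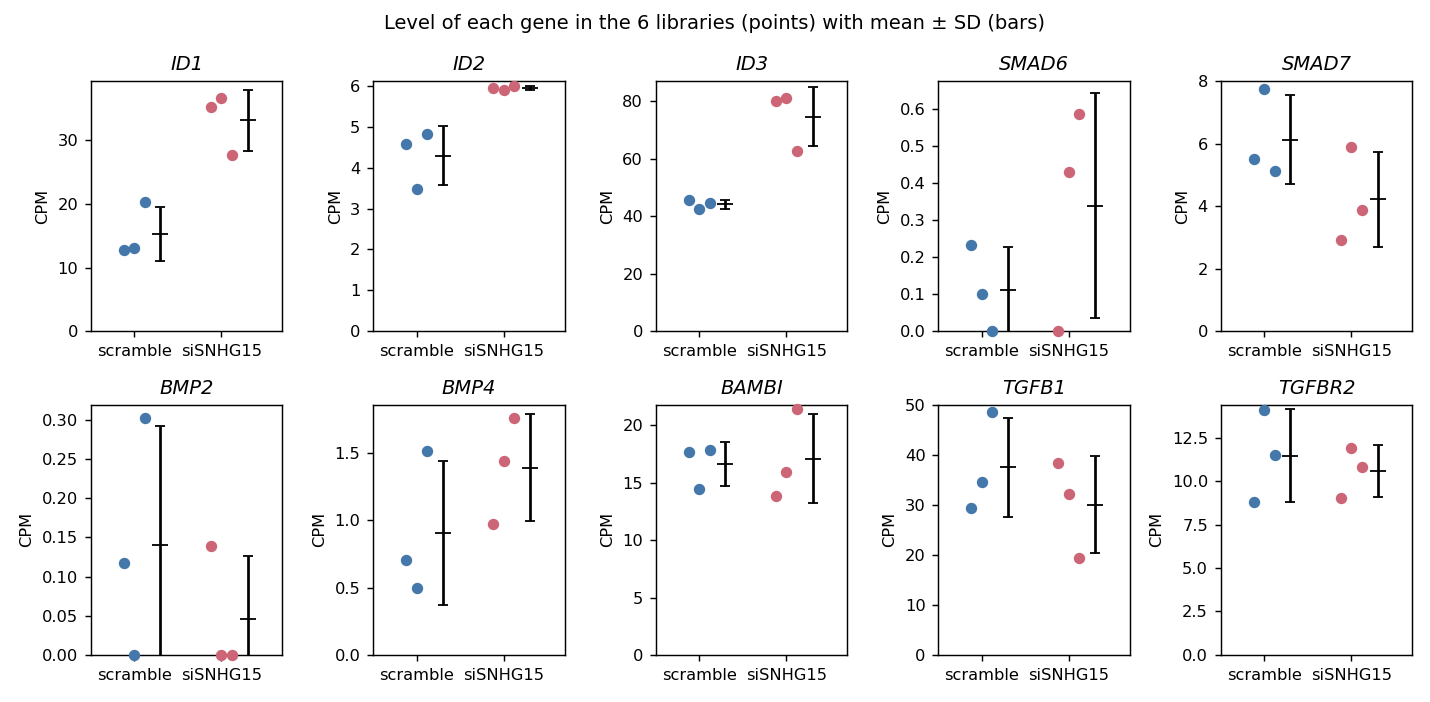
CPM on the y axis of each of the 10 genes, with the 3 scramble libraries in blue and the 3 *SNHG15* siRNA libraries in red, replicates 1 to 3 from left to right; horizontal ticks and bars are mean ± SD, cut at 0. The siRNA points of *ID1* (27.7 to 36.7 CPM), *ID2* (5.90 to 5.99 CPM) and *ID3* (62.8 to 81.0 CPM) lie above all scramble points, and the points of the other genes overlap.

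Among the 8 tested members, 2 passed the test, *ID1* and *ID3*, both higher, which is 25.0% of them against 5.36% of all genes tested, or 3.13% for genes called higher and 2.23% for genes called lower. The siRNA and scramble libraries did not overlap for 3 members, the *ID* genes, or 37.5%, against 28.8% of all genes tested. The median log2 fold change of the 8 was 0.28, against 0.00 for all genes tested, and the estimates ran from -0.58 to 1.17. The 8 include *BMP4* (0.89), which had 6, 5 and 5 counts in scramble and passed the filter partly through siRNA replicates 2 and 3. The median is therefore given as a description. Without scramble replicate 2, *ID1* kept a log2 fold change of 1.07 and *ID3* of 0.73 while their adjusted p rose to 0.0534 and 0.0627, and without scramble replicate 1 *ID3* stood at 0.78 with an adjusted p of 0.0501.

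**Figure D2:**
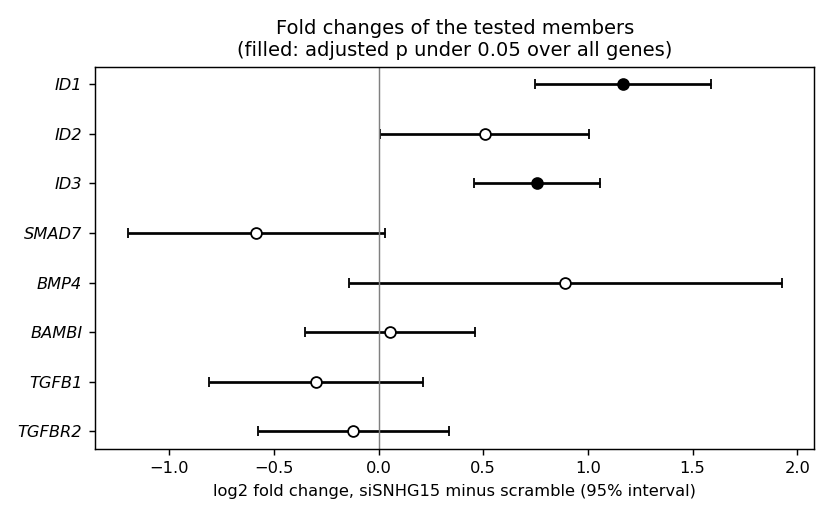
Log2 fold change (x axis, *SNHG15* siRNA minus scramble, with 95% intervals) of the 8 tested genes, filled where the adjusted p over all genes was under 0.05. *ID1* (1.17) and *ID3* (0.76) are filled, and among the open points the interval of *ID2* lies just above 0 and those of the remaining 5 cross 0.

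**Figure D3:**
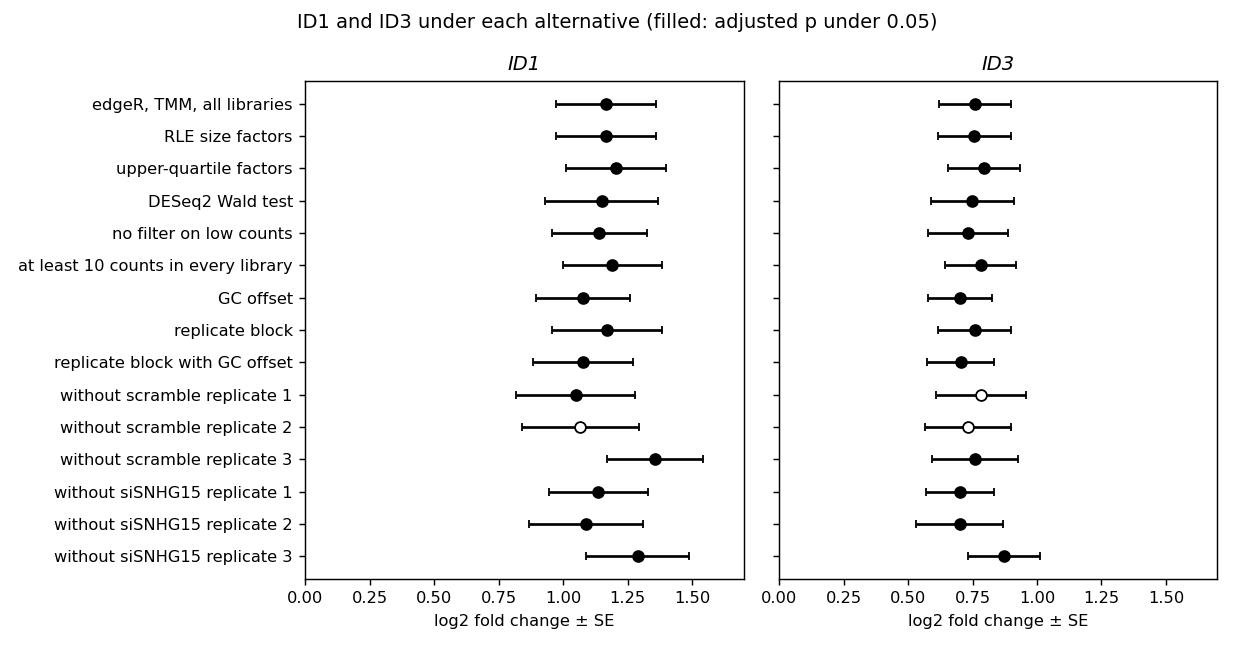
Log2 fold change ± SE of *ID1* (left) and *ID3* (right) in the test as reported, in 8 alternatives with all libraries and in 6 with a library left out, filled where the adjusted p was under 0.05. All points are above 0, from 1.05 to 1.36 for *ID1* and from 0.70 to 0.87 for *ID3*, and those open are *ID1* without scramble replicate 2 and *ID3* without scramble replicate 1 or 2.

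Ratios between the *ID* genes within a library do not depend on its scaling. The count ratio of *ID1* to *ID3* was 0.280, 0.308 and 0.456 in scramble and 0.439, 0.453 and 0.441 in siRNA libraries. Scramble replicate 3 thus reached the siRNA level, and the conditions overlapped (exact permutation test on log2 ratios, two-sided, p = 0.4, adjusted over 3 pairs 0.4). The ratio of *ID1* to *ID2* was 2.79, 3.74 and 4.19 in scramble and 5.91, 6.22 and 4.63 in siRNA libraries (exact p = 0.1, the smallest that 3 against 3 allow, adjusted 0.3). For *ID3* to *ID2* the exact p was 0.2 (adjusted 0.3). With so few libraries, none of the 3 pairs could have passed 0.05.

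The inhibitory SMADs gave no call. *SMAD7* (ENSG00000101665, chromosome 18 from 46446223 to 46477335, minus strand), which blocks both branches at the receptor, stood at 5.51, 7.76 and 5.14 CPM in scramble and 2.91, 5.90 and 3.88 CPM in siRNA libraries. Its conditions overlapped through siRNA replicate 2, and the log2 fold change was -0.58 (SE 0.29, 95% interval -1.20 to 0.03, adjusted p = 0.243). *SMAD6* (ENSG00000137834, chromosome 15 from 66994574 to 67075187, plus strand), which acts chiefly on the BMP branch, had 2, 1 and 0 counts in scramble and 0, 3 and 5 counts in siRNA libraries. The ratio of the 8 siRNA counts to the 3 scramble counts, scaled for depth, was 2.57 with a 95% interval of 0.618 to 15.1 that covers counting error only, so a difference was not detectable at this depth.

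Of the ligand genes, *BMP2* (ENSG00000125845, chromosome 20 from 6748333 to 6760893, plus strand) had 1, 0 and 1 counts in scramble and 1, 0 and 0 in siRNA libraries, at the floor in both conditions. *BMP4* (ENSG00000125378, chromosome 14 from 54416454 to 54425479, minus strand) had 6, 5 and 5 counts in scramble and 7, 10 and 15 in siRNA libraries, or 0.703, 0.497 and 1.51 against 0.970, 1.44 and 1.76 CPM. The highest values of *BMP4* were thus in siRNA replicate 3, but scramble replicate 3 lay within the siRNA range, and the log2 fold change of 0.89 (SE 0.48, 95% interval -0.14 to 1.93, adjusted p = 0.288) did not pass the test. *TGFB1* (ENSG00000105329, chromosome 19 from 41807492 to 41859827, minus strand) stood at 29.4, 34.7 and 48.7 CPM in scramble and at 38.5, 32.2 and 19.5 CPM in siRNA libraries. The values spread widely in both conditions, with the highest in scramble replicate 3 and the lowest in siRNA replicate 3. Its log2 fold change was -0.30 (SE 0.24, 95% interval -0.81 to 0.21, adjusted p = 0.488). *TGFB1* shares 215 exon bases with *HNRNPUL1* on the opposite strand, which had 717 to 2563 counts per library, and how the counting treated strand is not given in the sources used here.

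At the membrane, *BAMBI* (ENSG00000095739, chromosome 10 from 28966439 to 28971861, plus strand), a receptor-like protein without a kinase domain that blocks type I receptors, stood at 17.7, 14.4 and 17.8 CPM in scramble and 13.9, 16.0 and 21.4 CPM in siRNA libraries. The siRNA values bracketed those of scramble, and the log2 fold change was 0.06 (SE 0.19, 95% interval -0.35 to 0.46, adjusted p = 0.893). *TGFBR2* (ENSG00000163513, chromosome 3 from 30648093 to 30735634, plus strand), the ligand-binding type II receptor of TGF-beta, stood at 8.79, 14.1 and 11.5 CPM in scramble and 9.01, 11.9 and 10.8 CPM in siRNA libraries. Its conditions overlapped throughout, with a log2 fold change of -0.12 (SE 0.21, 95% interval -0.58 to 0.34, adjusted p = 0.775).

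Per kilobase of exon, the scramble level of *ID3* was the highest of the set at 29.5 ± 1.09 CPM per kb (SD, n = 3). *ID1* at 12.45 ± 3.45, *TGFB1* at 11.5 ± 3.05 and *BAMBI* at 7.785 ± 0.904 CPM per kb followed, clear of *ID3*, and each of these 3 overlapped its neighbour within 1 SD. *ID2* at 1.94 ± 0.325, *TGFBR2* at 1.67 ± 0.389 and *SMAD7* at 1.555 ± 0.359 CPM per kb formed a lower group whose neighbours overlapped likewise. *BMP4* had 0.292 ± 0.173 CPM per kb, and *BMP2* and *SMAD6* lay near 0, at 0.0395 ± 0.0430 and 0.0130 ± 0.0138 CPM per kb. In the siRNA libraries the order was the same except that *BMP2* and *SMAD6* changed places, with *ID3* at 49.9 ± 6.84 and *ID1* at 26.9 ± 3.90 CPM per kb.

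Of all tested genes with a symbol, those whose log2 CPM followed that of *ID1* most closely over the 6 libraries were *LIN7B* (Pearson r = 0.996), *ASAP2* (r = 0.985) and *NDRG4* (r = 0.985). The 6 libraries share their conditions, so these values mostly reflect the step between conditions and are given as a description. *LIN7B*, a scaffold protein gene of polarised cells, had a log2 fold change of 0.86 (adjusted p = 0.0296) and *ASAP2*, which encodes a GTPase-activating protein for Arf proteins, one of 1.53 (adjusted p = 0.0158). *NDRG4* was at 0.61 (adjusted p = 0.0695) and did not pass. These 3 genes were picked for their likeness to *ID1*, so their fold changes and adjusted p are a description too. *ASAP2* had 9, 13 and 6 counts in scramble and 27, 29 and 29 counts in siRNA libraries, and passed the filter mainly through the latter. Among the members, *ID3* (r = 0.935) and *ID2* (r = 0.890) were most like *ID1*, followed by *BMP4* (r = 0.686), and *SMAD7* was the most opposed (r = -0.635).

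Around these genes, 86 further genes of the pathway were grouped by role, and 52 of them were tested. Of the 52, 4 passed the test, 1 higher and 3 lower, which is 7.69% against 5.36% of all genes tested. The 1 called higher, *SMAD1*, had passed the filter only through the siRNA libraries. Libraries of the conditions did not overlap for 10 of the 52, or 19.2%, against 28.8%, and the median log2 fold change was 0.02. DESeq2 also called 4 of the 52, each of these 4 genes. An unadjusted p under 0.05 was reached by 15 of the 52, against 22.5% of all genes tested.

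**Figure D4:**
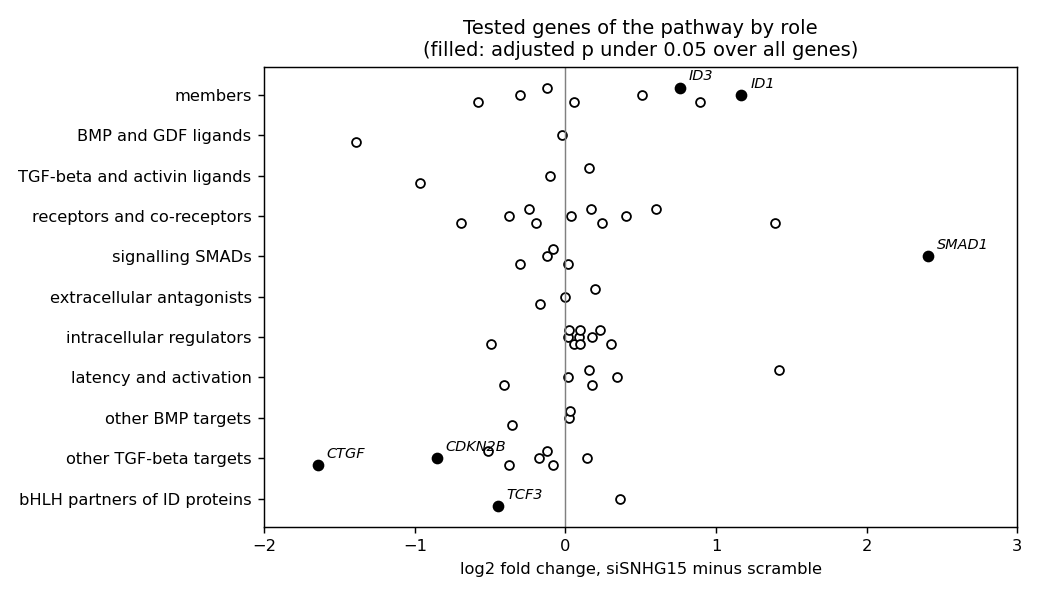
Log2 fold change (x axis, *SNHG15* siRNA minus scramble) of each tested gene, with the 8 tested members in the top row and the 52 tested pathway genes by role below, filled and named where the adjusted p over all genes was under 0.05. *SMAD1* (2.41), *ID1* (1.17) and *ID3* (0.76) are filled to the right of 0, and *CTGF* (-1.65), *CDKN2B* (-0.86) and *TCF3* (-0.45) to the left, while the open points run from -1.39 to 1.42.

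Among the signalling SMADs, 1 of 5 tested passed, against 5.36% of all genes tested, or 3.13% for genes called higher. *SMAD1*, a transducer of the BMP branch, had 3, 6 and 1 counts in scramble and 25, 14 and 17 counts in siRNA libraries, or 0.352, 0.597 and 0.302 against 3.47, 2.01 and 1.997 CPM. All siRNA libraries lay above the scramble libraries, at low levels throughout. The scramble counts were all under the filter's minimum of 10, so *SMAD1* entered the test only through the siRNA libraries. A gene that enters this way already stands high in them, so its non-overlap and its call are given as a description. The log2 fold change was 2.41 (SE 0.46, 95% interval 1.42 to 3.396, adjusted p = 0.0109). Without scramble replicate 1 it was 2.22 with an adjusted p of 0.0671, and without scramble replicate 2 it was 2.82 with an adjusted p of 0.0551. *SMAD5*, another BMP transducer, stood at 31.4 ± 3.64 CPM in scramble and 25.6 ± 5.24 CPM in siRNA libraries (SD, n = 3), with a log2 fold change of -0.30 (adjusted p = 0.311). Per kilobase of exon, the siRNA libraries held 0.351 CPM per kb of *SMAD1* and 2.83 of *SMAD5*. *SMAD2* (log2 fold change 0.02, adjusted p = 0.961) and the shared *SMAD4* (-0.12, adjusted p = 0.685) did not pass. *SMAD3* was not tested, with 6, 9 and 2 counts in scramble and 3, 2 and 4 counts in siRNA libraries.

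By edgeR, 0 of the 10 tested receptors and co-receptors passed, while 4 of them had an unadjusted p under 0.05, as did 22.5% of all genes tested. *ACVR1*, a type I receptor of BMP ligands, came nearest, at 27.8, 29.5 and 16.9 CPM in scramble and 12.2, 16.1 and 18.7 CPM in siRNA libraries. Scramble replicate 3 fell among the siRNA values, and the log2 fold change was -0.70 (SE 0.21, adjusted p = 0.0734). *BMPR2* was at 0.60 (adjusted p = 0.222), *BMPR1A* at -0.19 (adjusted p = 0.654) and *TGFBR1* at 0.24 (adjusted p = 0.347) on the log2 scale. *RGMB*, a BMP co-receptor and the gene of its role with most reads, stood at 287 ± 30.5 CPM in scramble and 221 ± 33.4 CPM in siRNA libraries (SD, n = 3), with all siRNA libraries lower and a log2 fold change of -0.38 (adjusted p = 0.135). It shares 363 exon bases with the antisense gene *RGMB-AS1*, which had 20 to 53 counts per library.

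Most ligand and secreted antagonist genes had too few reads to test. Of 9 further BMP and GDF ligand genes 2 were tested and 0 passed by edgeR. An unadjusted p under 0.05 was reached by 1 (*GDF7*), against 22.5% of all genes tested. *GDF7* had 39, 38 and 2 counts in scramble and 2, 20 and 7 counts in siRNA libraries, with overlapping conditions. Most reads were those of *BMP8B*, at 5.13 ± 1.32 CPM in scramble and 4.76 ± 0.568 CPM in siRNA libraries (SD, n = 3). Of 7 further genes grouped here with the TGF-beta and activin ligands 3 were tested and 0 passed by edgeR. An unadjusted p under 0.05 was reached by 1, *GDF15*, again against 22.5% of all genes tested. This stress-induced ligand stood at 66.9, 92.5 and 35.7 CPM in scramble and 13.7, 44.7 and 43.5 CPM in siRNA libraries, with overlapping conditions and a log2 fold change of -0.96 (SE 0.37, adjusted p = 0.142). Of 11 antagonist genes 3 were tested and 0 passed by edgeR, also without adjustment, with *TWSG1*, which binds BMPs, at a log2 fold change of -0.17 (adjusted p = 0.552). *NOG* and *GREM1*, which encode other BMP antagonists, had 0 counts in every library.

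The intracellular regulators were all counted well enough to test, and 0 of 10 passed by edgeR. Of the 10, 1 had an unadjusted p under 0.05, against 22.5% of all genes tested. *SMURF2*, a ubiquitin ligase that marks receptors and SMADs for degradation, had most reads, at 436 ± 35.5 CPM in scramble and 466 ± 103 CPM in siRNA libraries (SD, n = 3, log2 fold change 0.09, adjusted p = 0.763). Of the genes for latency and activation of TGF-beta, 0 of 6 tested passed by edgeR, with 3 at an unadjusted p under 0.05, against 22.5% of all genes tested. Among them *FURIN*, the protease that cleaves the TGF-beta precursor, stood lower in all siRNA libraries, at 92.1 ± 10.0 CPM against 69.6 ± 6.48 CPM (SD, n = 3, log2 fold change -0.40, adjusted p = 0.0933).

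Of 3 further tested BMP target genes 0 passed by edgeR, also without adjustment, and *MSX1*, a homeobox gene, stood at 67.1 ± 2.47 and 68.6 ± 3.39 CPM (SD, n = 3, log2 fold change 0.03, 95% interval -0.23 to 0.30, adjusted p = 0.900). Of 8 tested TGF-beta target genes 2 passed, both lower, which is 25.0% of them against 5.36% of all genes tested, or 2.23% for genes called lower. The conditions did not overlap for 3 of the 8, or 37.5%, against 28.8% of all genes tested. *CTGF*, which encodes a matrix-associated growth factor also known as CCN2, had 67, 105 and 32 counts in scramble and 13, 17 and 38 counts in siRNA libraries. As levels these were 7.85, 10.4 and 9.68 CPM against 1.80, 2.45 and 4.46 CPM, so that all siRNA libraries were lower, and the log2 fold change was -1.65 (SE 0.30, 95% interval -2.29 to -1.005, adjusted p = 0.00823). Without scramble replicate 2 it was -1.53 with an adjusted p of 0.0637. *CDKN2B*, the gene of the cell cycle inhibitor p15, stood at 11.9, 12.3 and 13.6 CPM in scramble and 6.65, 6.76 and 7.28 CPM in siRNA libraries. Its conditions did not overlap, and the log2 fold change was -0.86 (SE 0.18, adjusted p = 0.0170). Among the fits with a library left out, it was past the threshold only without siRNA replicate 1 or 3, and the estimate without the other libraries ran from -0.90 to -0.82 with adjusted p of 0.0587 without scramble replicate 1, 0.0768 without 2, 0.0604 without 3 and 0.0606 without siRNA replicate 2.

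Of the 2 tested partners of the ID proteins, 1 passed, and it was lower. Of all genes tested, 5.36% passed and 2.23% were called lower. The conditions did not overlap for both partners, in opposite directions, and did not overlap for 28.8% of all genes tested. *TCF3*, which encodes the E proteins E12 and E47, stood at 139, 148 and 168 CPM in scramble and 114, 109 and 109 CPM in siRNA libraries. All siRNA libraries were lower, with a log2 fold change of -0.45 (SE 0.12, adjusted p = 0.0484), at the edge of the threshold. Among the fits with a library left out, only that without siRNA replicate 1 kept the call (-0.47, adjusted p = 0.0271), and the adjusted p was 0.0991, 0.138 and 0.160 without scramble replicates 1 to 3 and 0.143 and 0.0952 without siRNA replicates 2 and 3. *TCF12* had a log2 fold change of 0.36 (SE 0.17, adjusted p = 0.239), and *TCF4* had 1 count in all libraries together. Summed per kilobase of exon, *ID1*, *ID2* and *ID3* together gave 42.9, 40.5 and 48.3 CPM per kb in scramble and 84.8, 86.6 and 67.2 CPM per kb in siRNA libraries. The 3 E protein genes gave 23.2, 24.3 and 27.6 against 19.3, 18.9 and 18.8 CPM per kb. The ratio of both sums was 1.85, 1.66 and 1.75 in scramble and 4.39, 4.57 and 3.58 in siRNA libraries, with no overlap. This ratio is a description of transcripts, since it is built from genes already tested, and protein was not measured in these files.

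**Figure D5:**
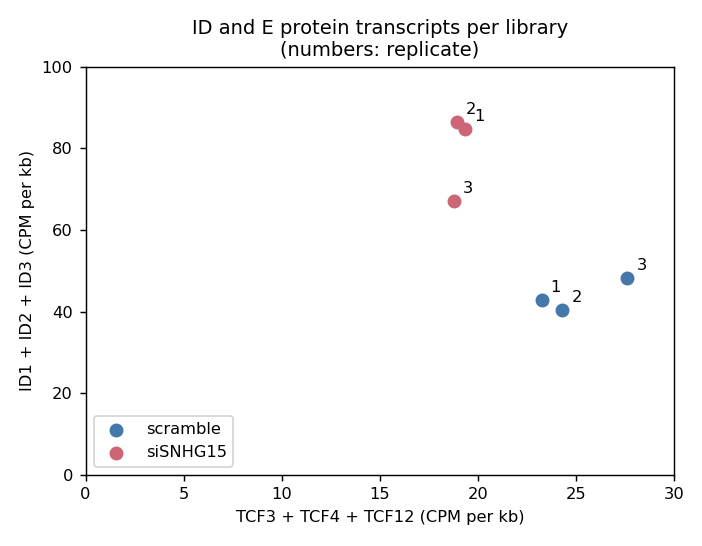
Summed level of *ID1*, *ID2* and *ID3* (y axis, CPM per kb of exon) against that of *TCF3*, *TCF4* and *TCF12* (x axis, CPM per kb of exon), 1 point per library with its replicate number. The siRNA libraries lie above and to the left of the scramble libraries, with ratios of 3.58 to 4.57 against 1.66 to 1.85.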

How the data were processed

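RNA of 6 libraries, 3 per condition, had been sequenced as 75-base paired-end reads from a stranded mRNA kit, and the study names 3 biological replicates. The authors deposited raw counts of reads per Ensembl gene, without normalization, on hg19. The submitters' processing notes name STAR and featureCounts and the study's methods bowtie2, and the labels name TRIzol where those methods name a Maxwell kit. Annotation, strand and multiple-placement settings are not given in the sources used here, so reads of overlapping or near-identical genes may be split. Libraries were grouped by their labels, and 0 columns were left unassigned.

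Counts were filtered (filterByExpr, minimum count 10, total 15), scaled by TMM (factors 0.961 to 1.06) and tested with edgeR 4.0.16 in R 4.3.3 by the quasi-likelihood test, siRNA against scramble with condition as the sole term. The table held 63677 genes, 23675 with any count, and 12507 passed the filter. Of these, 671 passed an adjusted p of 0.05 (Benjamini-Hochberg over all genes tested), 392 higher and 279 lower, while 2820 had an unadjusted p under 0.05. CPM uses the TMM-scaled library size. Each standard error is the fold change over the root of its F statistic. Names, positions and union exon lengths came from GENCODE on GRCh37, and *PECAM1* had no match.

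Genes named are the 10 members, *SNHG15*, pathway genes past the threshold, the gene with most reads of each role, the main receptors and signalling SMADs and the 3 genes most like *ID1*. Some genes this rule takes are not reported here. Members and lists were chosen with earlier results of these data known. Alternatives were RLE and upper-quartile factors, DESeq2 1.42.0, no filter, at least 10 counts in every library, a loess GC offset (span 0.3), a replicate block alone and together with that offset, and leaving out each library. The steps were tested on simulated data. Intervals on counts and floors cover counting error only.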

Additional observations from a re-analysis of the deposited data

How the results depend on the processing

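*ID1* and *ID3* passed the test in all 8 alternatives that keep the 6 libraries, at 1.08 to 1.21 and 0.70 to 0.80 on the log2 scale. With a library left out, *ID1* ran from 1.05 to 1.36 and *ID3* from 0.70 to 0.87, and 0 to 2 members passed, 0 without scramble replicate 2 and 1 without scramble replicate 1. The open directions of *BAMBI* (-0.14 to 0.19, below 0 at -0.05 without scramble replicate 2 and at -0.14 without siRNA replicate 3) and *TGFBR2* (-0.30 to 0.11, above 0 without scramble replicate 2) turned with the library left out, and no other tested member turned. Over all genes, 1312 passed without a filter and 1019 with the GC offset, and 139 to 812 with a library left out. Of the pathway genes, 9 passed without a filter. With the GC offset, alone or together with the replicate block, 6 passed, 1 higher and 5 lower. With at least 10 counts in every library, which *SMAD1* and *BMP4* did not reach, 2 passed, and 0 to 6 passed with a library left out. The cause of the larger counts was not tested. The split of higher and lower genes was 392 to 279 as reported, 515 to 230 with upper-quartile factors, 450 to 569 with the GC offset and 381 to 380 with DESeq2. *TCF3* did not pass with upper-quartile factors (-0.41), with at least 10 counts in every library (-0.43) or with the replicate block (-0.45, adjusted p = 0.0834).

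Same-numbered libraries of the conditions did not deviate together (correlations of -0.07, 0.155 and -0.04), so the numbers were not taken as pairs. With the replicate block, 543 genes passed, 336 higher and 207 lower, and with block and GC offset 847. The block changed no call but that of *TCF3* among members and called pathway genes. Genes under about 10 counts per library, *BMP4*, *SMAD1*, *SMAD3* and *SMAD6* among them, are limited by depth.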

Other observations

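Values that follow were picked after they were seen and are given as a description. Of the pathway genes, *TGFBR3*, which encodes the co-receptor betaglycan, stood at 0.813 ± 0.723 CPM in scramble and 2.37 ± 0.945 CPM in siRNA libraries (SD, n = 3), with a log2 fold change of 1.39 (adjusted p = 0.126). *ITGAV*, the integrin chain that takes part in activating latent TGF-beta, was at 1.45 ± 1.39 and 2.89 ± 0.979 CPM (SD, n = 3), with a log2 fold change of 1.42 (adjusted p = 0.132). Neither passed the test, and both have overlapping conditions. In scramble *TGFBR3* had 14, 5 and 1 counts and *ITGAV* 8, 4 and 10, so both passed the filter mainly through the siRNA libraries. *JUNB*, an early target gene, was lower in all siRNA libraries at 47.7 ± 5.18 CPM against 61.5 ± 10.2 CPM (SD, n = 3), with a log2 fold change of -0.37 (adjusted p = 0.169) that did not pass either.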
